A study of Homo sapiens with 20 samples.

Results

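Transcript levels are described here for 10 genes that encode surface proteins of plasma cells used, or under study, as targets of antibodies, antibody-drug conjugates, bispecific antibodies or CAR T cells in multiple myeloma. They are TNFRSF17 (BCMA), SDC1 (CD138), CD38, SLAMF7, GPRC5D, FCRL5, CD28, TNFRSF13B (TACI), LY9 and CD48. They were picked by name from the 78932 gene identifiers in the deposited count table, with no threshold on their values. Earlier results of these data were known when the genes were chosen. Of the 10 genes, 9 passed the filter on low counts, as did 20957 genes in all, and TNFRSF13B did not. The cells were OPM2, an established human myeloma line labelled as of bone marrow origin, so every value is from a single line grown in culture. Group sizes were 2 libraries, which the labels call independent biological replicates, with 20 libraries in 10 groups. A DMSO vehicle group, for which no harvest time is given, was set against panobinostat at 10 nM, romidepsin at 10 nM and ricolinostat at 100 nM, each harvested after 2, 5 and 20 h. Titles, protocol and design text give 100 nM for ricolinostat, while their treatment field reads 10 nM. All 3 drugs inhibit histone deacetylases: panobinostat and ricolinostat are hydroxamic acids, the latter made to prefer HDAC6, and romidepsin is a cyclic depsipeptide that acts mainly on class I enzymes.

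Plasma cells carry surface proteins, some of which other blood cells largely lack or hold at lower levels, and this helps to make those usable as targets. BCMA and TACI are receptors for the survival ligands BAFF and APRIL, and BCMA is cut from the membrane by gamma-secretase. CD138 is a heparan sulfate proteoglycan, CD38 an enzyme that consumes NAD outside the cell, and SLAMF7, LY9 and CD48 are members of the SLAM family of adhesion and signalling receptors. CD28, best known as the costimulatory receptor of T cells, is also carried by many myeloma cells. Histone deacetylase inhibitors raise histone acetylation, which changes the transcription of many genes in either direction. A transcript level is not a surface protein level, and no protein was measured.

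Total counts per library ran from 17264640 to 29088868. Levels are CPM scaled by TMM, and changes are log2 fold changes ± SE with Benjamini-Hochberg adjusted p-values from edgeR's quasi-likelihood F test over all 20957 genes, two-sided. Genes with an adjusted p under 0.05 are called higher, lower, risen or fallen. Group means are given ± SD over 2 libraries. All comparisons with DMSO share the same 2 control libraries, and since DMSO has no stated time, time in culture and inhibitor cannot be told apart in them. Of 11 plasma cell and myeloma marker genes, none was at 0 counts in DMSO, where their summed level was 12370 and 12443 CPM. With panobinostat at 20 h the summed plasma cell marker level was 1987 and 1997 CPM, with romidepsin at 20 h 3603 and 3663 CPM and with ricolinostat at 20 h 10394 and 10417 CPM. Summed levels of myeloid, T and NK cell and stromal markers were higher in the panobinostat and romidepsin groups at 20 h than in DMSO. The 9 myeloid markers summed to 0.64 and 0.75 CPM in DMSO, 7.67 and 7.82 CPM with panobinostat at 20 h and 3.12 and 2.71 CPM with romidepsin at 20 h. Of these, CSF1R, the receptor of macrophage colony-stimulating factor, went from 0.04 to 5.16 and 1.46 CPM, while S100A8 and S100A9 were at 0 counts in all 3 groups. The 10 T and NK cell markers summed to 0.85 and 1.27 CPM in DMSO, with CD3D and CD3E at 0 counts, and to 3.17 and 2.77 CPM with panobinostat at 20 h, with none at 0 counts. With romidepsin at 20 h the sum was 2.45 and 3.63 CPM. Both tested T and NK cell markers were higher with panobinostat and romidepsin at 20 h. Of all tested genes 40.8% and 38.6% were higher there. Markers so low in DMSO may have passed the filter only through groups in which they were higher, so this is a description. The 6 stromal markers summed to 0 and 0.07 CPM in DMSO, and to 35.4 to 37.1 CPM and 26.9 to 29.2 CPM at 20 h of the same inhibitors. COL1A1, a collagen gene with 0 counts in DMSO, was at least 574-fold and at least 429-fold higher. These folds are against a floor of 3 counts over the 2 DMSO libraries. LUM stayed at 0 counts with panobinostat at 20 h, and COL1A2, PDGFRB and VCAM1 did with romidepsin at 20 h. Early B cell markers were present in DMSO, at 31.0 and 34.6 CPM over 8 genes. They summed to 35.6 and 35.5 CPM with panobinostat at 20 h and to 56.9 and 53.8 CPM with romidepsin. BACH2, a transcriptional repressor of B cells, made up most of the DMSO level at 27.6 CPM. It was at 16.4 and 35.5 CPM at 20 h of panobinostat and romidepsin. MS4A1, which encodes CD20, was at 0 counts in all 3 groups. In bulk RNA, fewer cells of a kind and less RNA per cell cannot be told apart, and the part of these marker changes in the results below was not tested.

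RefSeq's promoter table (GRCh38.p14) held 7 of the 10 genes. The stretches just upstream of 5 of them are shown because SDC1, CD28 and CD48 fell together with panobinostat, whereas CD38 and GPRC5D took other courses. Each runs 5′ to 3′ on the gene's strand, up to 250 bases before the RefSeq start, without bases that GENCODE 29 puts in an exon of the gene. Capitals mark matches, on either strand, to any of 8 motifs: CACGTG (E-box of MYC), CACCTG (E-box of E proteins), ATTTGCAT (octamer), the interferon response element core, TGANTCA (AP-1), GGGCGG (SP and KLF), CCAAT and TATAAA. No matches of different motifs overlapped here.
SDC1, chr2:20225476-20225725, minus strand: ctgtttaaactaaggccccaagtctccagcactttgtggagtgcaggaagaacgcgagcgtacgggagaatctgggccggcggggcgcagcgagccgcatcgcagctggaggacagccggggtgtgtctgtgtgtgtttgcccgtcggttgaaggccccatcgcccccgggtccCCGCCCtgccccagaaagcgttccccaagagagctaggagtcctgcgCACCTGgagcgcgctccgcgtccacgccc
CD28, chr2:203706389-203706474, plus strand: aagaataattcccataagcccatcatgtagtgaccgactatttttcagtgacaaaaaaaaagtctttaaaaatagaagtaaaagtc
CD48, chr1:160711852-160712072, minus strand: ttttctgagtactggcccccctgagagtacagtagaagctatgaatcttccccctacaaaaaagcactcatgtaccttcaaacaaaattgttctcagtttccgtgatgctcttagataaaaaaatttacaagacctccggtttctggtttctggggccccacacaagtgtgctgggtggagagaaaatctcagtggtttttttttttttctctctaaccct
CD38, chr4:15778078-15778274, plus strand: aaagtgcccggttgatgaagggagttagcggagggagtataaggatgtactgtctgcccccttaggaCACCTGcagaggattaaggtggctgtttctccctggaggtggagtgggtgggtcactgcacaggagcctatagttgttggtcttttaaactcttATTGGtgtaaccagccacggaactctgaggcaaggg
GPRC5D, chr12:12952171-12952420, minus strand: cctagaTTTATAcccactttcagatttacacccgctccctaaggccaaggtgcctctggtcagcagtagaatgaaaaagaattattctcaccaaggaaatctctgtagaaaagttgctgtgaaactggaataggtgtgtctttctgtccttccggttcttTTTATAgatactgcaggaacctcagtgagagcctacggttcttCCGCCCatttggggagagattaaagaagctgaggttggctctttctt

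The SDC1 stretch was rich in G and C (66.4%, with 23 CG pairs, against a median of 58% over the 35116 windows of the table). It held 1 CACCTG, present in 17.5% of all windows of 250 bases, and 1 GGGCGG, present in 42.6%. The CD28 stretch of 86 bases (30.2% G and C) and the CD48 stretch of 221 bases (42.1%) held none of the 8 motifs. In the CD38 stretch of 197 bases were 1 CACCTG (in 14.7% of windows of that length) and 1 CCAAT (in 26.9%). GPRC5D had 2 TATAAA matches, both on the opposite strand (in 10.7% of windows of 250 bases), and 1 GGGCGG. The 3 genes that fell together shared no motif of this set within these windows, which says only that those letters are not there.

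In DMSO the 10 genes spanned several orders of level. Per kilobase of annotated exon, SDC1 stood at 311 ± 3.05 CPM per kb and TNFRSF17 at 269 ± 0.08 CPM per kb. SLAMF7 (76.0 ± 0.09 CPM per kb), CD48 (72.5 ± 0.24), CD28 (44.6 ± 0.07) and GPRC5D (36.4 ± 1.75) followed. CD38 was far lower, at 1.67 ± 0.05 CPM per kb, then LY9 at 0.22 and FCRL5 at 0.02 CPM per kb. TNFRSF13B had no count. Each step in this order from SDC1 to FCRL5 was larger than the spread between the 2 libraries, though the per-length scale rests on the union of all annotated exons.

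**Figure D1:**
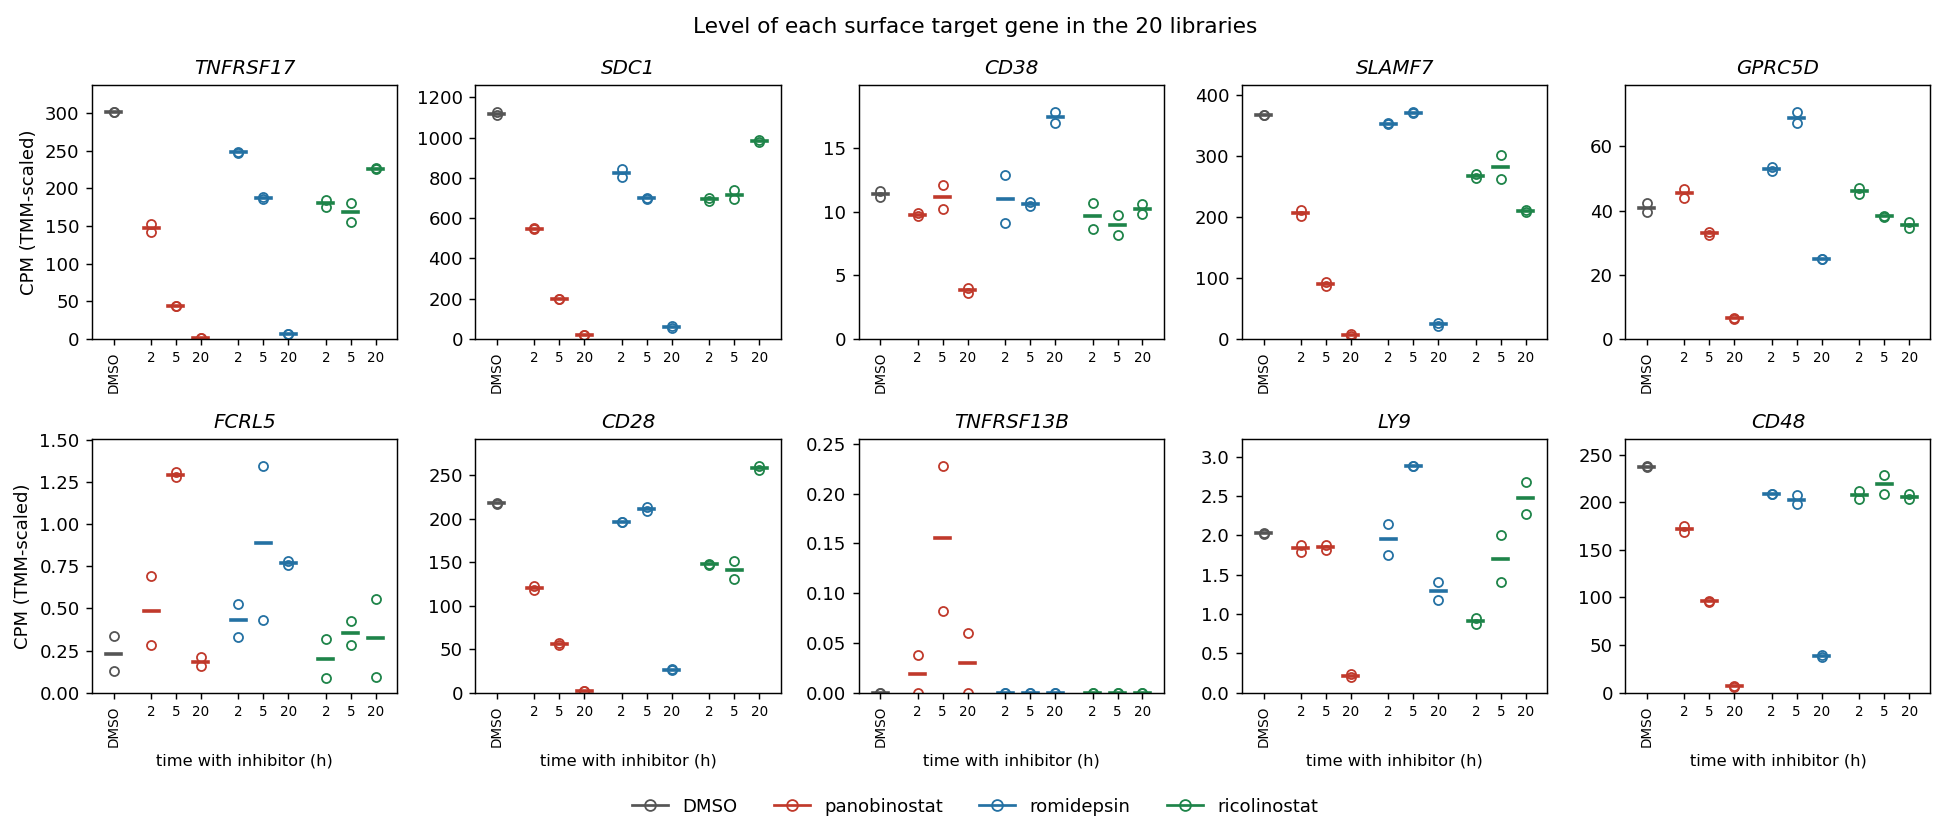
Level in CPM (linear axis from 0, with its own scale in each panel) of the 10 genes in every library, with circles for the 2 libraries of a group and a bar for their mean, for DMSO and for 2, 5 and 20 h of each inhibitor. TNFRSF17, SDC1, SLAMF7, CD28 and CD48 step down with time in panobinostat and drop with romidepsin at 20 h, whereas CD38 peaks with romidepsin at 20 h (17.8 and 16.99 CPM) and GPRC5D with romidepsin at 5 h (67.2 and 70.7 CPM).

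With panobinostat, the 5 targets with the highest CPM in DMSO were the ones lower at 2 h, and they had the 5 largest falls at 20 h. FCRL5, with under 10 counts in each DMSO library, passed the filter only through groups in which it was higher, so it is left out of the counts and medians here and described by itself. At 2 h 5 of the other 8 tested genes were lower than DMSO (TNFRSF17, SDC1, SLAMF7, CD28 and CD48) and none was higher, where 18.1% of all tested genes were lower and 20.8% higher. At 5 h GPRC5D joined them, for 6 lower and none higher, against 25.9% and 30.7% of all genes. At 20 h all 8 were lower, where 32.3% of all genes were lower and 40.8% higher. The median change of the 8 genes was -0.65, -1.63 and -5.48 at 2, 5 and 20 h, and that of all genes 0.01, 0.12 and 0.25.

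TNFRSF17 (ENSG00000048462, chromosome 16, 11965107 to 11968068, plus strand) encodes BCMA, the target of several approved CAR T cell and bispecific products. Its libraries read 301 and 301 CPM in DMSO, 153 and 142 CPM at 2 h of panobinostat, 43.1 and 43.1 CPM at 5 h, and 0.86 and 1.17 CPM at 20 h. No library of a later time reached those of an earlier one, and the 20 h mean was 0.34% of the DMSO mean. The changes were -1.04 ± 0.05, -2.80 ± 0.05 and -8.18 ± 0.09 (edgeR adjusted p = 5.8e-92 at 20 h). TNFRSF17 lies within the span of NPIPB2, which is on the other strand, with 0 exon bases shared. NPIPB2 was at 16.1 CPM in DMSO and changed by -2.39 ± 0.16 with panobinostat at 20 h.

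SDC1 (ENSG00000115884, chromosome 2, 20200797 to 20225433, minus strand), the surface marker by which plasma cells are sorted, had the highest level of the 10. It read 1111 and 1126 CPM in DMSO, then 545 and 549, 199.6 and 199.0, and 18.0 and 17.6 CPM at 2, 5 and 20 h of panobinostat. The groups did not overlap at any step, and the changes were -1.03 ± 0.04, -2.49 ± 0.04 and -5.98 ± 0.05 (edgeR adjusted p = 3.0e-98 at 20 h). At 20 h, with 1.59% of its DMSO level left, SDC1 was still the most abundant of the 10 in CPM.

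CD28 (ENSG00000178562, chromosome 2, 203706475 to 203738912, plus strand) was at 218 and 218 CPM in DMSO. With panobinostat it went to 118 and 123 CPM, 57.0 and 55.3 CPM, and 1.88 and 1.53 CPM. Again no groups overlapped, and its fall at 20 h, -7.01 ± 0.09 (edgeR adjusted p = 3.3e-88), was next in size to that of TNFRSF17. At 2 and 5 h it had changed by -0.85 ± 0.05 and -1.96 ± 0.05.

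SLAMF7 and CD48, both of the SLAM family on chromosome 1, fell at each time. SLAMF7 (ENSG00000026751, 160739057 to 160754821, plus strand), the target of elotuzumab, read 367 and 367 CPM in DMSO, 202 and 211 at 2 h, 92.7 and 87.0 at 5 h, and 5.40 and 7.28 CPM at 20 h of panobinostat. CD48 (ENSG00000117091, 160678746 to 160711851, minus strand), a lipid-anchored ligand of CD244 and CD2, read 238 and 237 CPM in DMSO, then 175 and 169, 96.5 and 95.2, and 6.1 and 7.34 CPM. In both, each time lay below the one before with no overlap. SLAMF7 changed by -0.83 ± 0.06, -2.03 ± 0.06 and -5.83 ± 0.08, and CD48 by the smaller -0.47 ± 0.05, -1.31 ± 0.05 and -5.13 ± 0.07. CD48 shares 976 exon bases with an antisense gene, ENSG00000228863, which had 44 and 41 counts in DMSO. The strand setting of the counting is not given in the sources used here, so reads of the pair cannot be told apart.

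GPRC5D, CD38 and LY9 kept near their DMSO levels for longer. GPRC5D (ENSG00000111291, chromosome 12, 12940775 to 12952147, minus strand), an orphan receptor targeted by talquetamab, read 39.6 and 42.3 CPM in DMSO, 46.8 and 44.0 at 2 h, 32.3 and 33.5 at 5 h, and 6.54 and 6.31 CPM at 20 h of panobinostat. The 2 h libraries lay above DMSO, with a change of 0.15 ± 0.07 that did not pass (edgeR adjusted p = 0.0996), and the later ones below it, by -0.32 ± 0.08 and -2.67 ± 0.09. CD38 (ENSG00000004468, chromosome 4, 15778275 to 15853230, plus strand), the target of daratumumab, read 11.6 and 11.2 CPM in DMSO, 9.86 and 9.62 at 2 h, 12.1 and 10.2 at 5 h, and 4.03 and 3.58 CPM at 20 h. The fall at 20 h was -1.59 ± 0.16 (edgeR adjusted p = 4.7e-16), while changes of -0.23 ± 0.14 and -0.04 ± 0.14 at 2 and 5 h did not pass. The 95% intervals of those changes, -0.51 to 0.06 and -0.33 to 0.24, leave out falls of the size seen in TNFRSF17. The interval at 2 h does hold the change of CD48 at that time, -0.47. LY9 (ENSG00000122224, chromosome 1, 160796074 to 160828261, plus strand), also called CD229, was low throughout, at 2.03 and 2.01 CPM in DMSO. It stayed at 1.79 to 1.88 CPM at 2 and 5 h of panobinostat and went to 0.20 and 0.24 CPM at 20 h (-3.17 ± 0.43, edgeR adjusted p = 1.7e-10). The 95% intervals of the LY9 changes at 2 and 5 h were wide, -0.77 to 0.50 and -0.78 to 0.51.

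FCRL5 and TNFRSF13B were at the edge of detection. FCRL5 (ENSG00000143297, chromosome 1, 157513377 to 157552520, minus strand), a receptor that binds IgG, had 3 and 9 counts in DMSO (0.13 and 0.34 CPM) and no more than 31 counts in any library. Its rises were favoured by the way it passed the filter, so its changes are given as a description with no p-value. Panobinostat libraries read 0.28 and 0.69 CPM at 2 h, 1.31 and 1.28 CPM at 5 h, and 0.16 and 0.21 CPM at 20 h. The changes at 2, 5 and 20 h were 1.06 ± 0.73, 2.43 ± 0.68 and -0.33 ± 0.82. TNFRSF13B (ENSG00000240505, chromosome 17, 16929816 to 16972118, minus strand) had 0 counts in 16 of the 20 libraries, which in the DMSO libraries allows a level of up to 0.105 and 0.119 CPM, taking 3 counts as the limit. Its 9 counts all came from panobinostat libraries, namely 0 and 1 at 2 h, 4 and 2 at 5 h, and 0 and 2 at 20 h. No fold is given for so few counts, and limits of this kind cover counting error only. TNFRSF13B also shares 615 exon bases with TBC1D27P, a pseudogene on the same strand with 0 counts in DMSO. How reads of the shared bases were counted is not given in the sources used here.

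**Figure D2:**
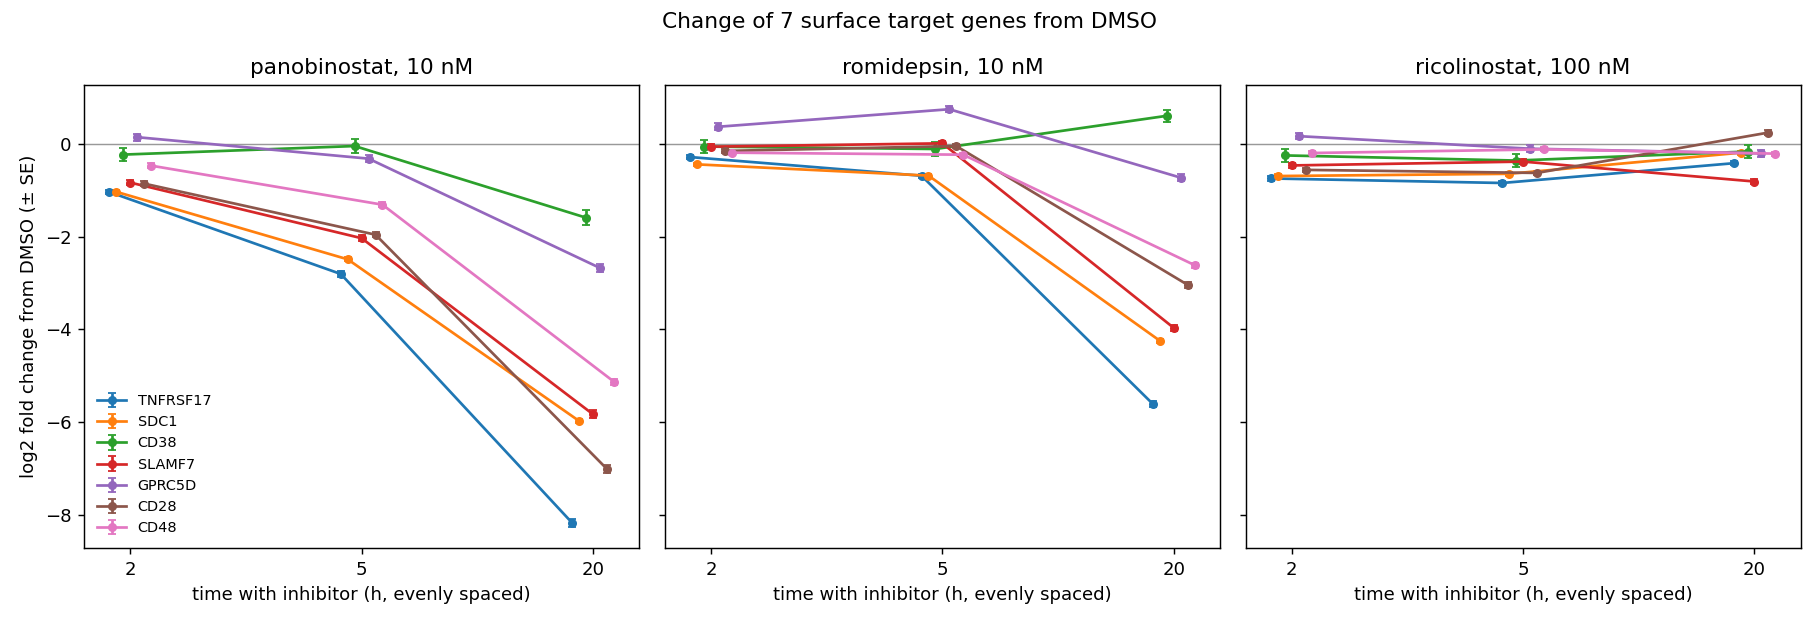
Log2 fold change from DMSO ± SE (n = 2 libraries per group) of 7 genes against time with each inhibitor, with the 3 times evenly spaced and points shifted sideways for legibility; LY9, FCRL5 and TNFRSF13B are left out for their low counts. With panobinostat TNFRSF17, SDC1, SLAMF7, CD28 and CD48 are lower than DMSO at every time and TNFRSF17 reaches -8.18, with romidepsin most of the fall lies between 5 and 20 h, and with ricolinostat all values lie between -0.84 and 0.25.

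With romidepsin TNFRSF17, SDC1, SLAMF7, CD28 and CD48 had most of their fall between 5 and 20 h, GPRC5D rose before it fell, and CD38 rose. At 2 h 4 of 8 genes, FCRL5 again left out, were lower and 1 higher, against 4.62% and 3.55% of all tested genes. At 5 h 3 were lower and 1 higher (background 16.5% and 13%), and at 20 h 6 were lower and 1 higher (29.9% and 38.6%). The median change of the 8 genes was -0.10, -0.08 and -2.83, and that of all genes 0, 0.02 and 0.22.

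The falls at 2 and 5 h of romidepsin were small beside those at 20 h. TNFRSF17 read 248 and 247 CPM at 2 h, 186 and 188 CPM at 5 h, and 6.50 and 5.86 CPM at 20 h. Every group was below the one before it, and the changes from DMSO were -0.28 ± 0.05, -0.68 ± 0.05 and -5.61 ± 0.07 (edgeR adjusted p = 2.1e-86 at 20 h). SDC1 read 805 and 845, 693 and 702, and 63.9 and 54.3 CPM, with -0.44 ± 0.04, -0.68 ± 0.04 and -4.24 ± 0.05. The other 7 tested genes had no fall as large as these by 5 h. SLAMF7 stood at 352 and 353 CPM at 2 h and 370.1 and 371 CPM at 5 h, changes of -0.06 ± 0.05 and 0.01 ± 0.05 that did not pass, with 95% intervals of -0.17 to 0.05 and -0.10 to 0.13. At 20 h it was at 25.8 and 21.3 CPM (-3.97 ± 0.07, edgeR adjusted p = 2.4e-32). CD28 read 197 and 196, 213 and 209, and 25.6 and 27.4 CPM, and CD48 208 and 209, 198 and 207, and 37.9 and 39.7 CPM. At 20 h both were below every earlier library, with -3.04 ± 0.06 and -2.61 ± 0.05. CD48 had also passed at 2 and 5 h (-0.19 ± 0.05 and -0.23 ± 0.05), but with counts scaled by library size alone the call at 5 h was lost (-0.10, edgeR adjusted p = 0.0641). CD28 passed at 2 h with -0.15 ± 0.05 (edgeR adjusted p = 0.0335) and lost that call when any of the 4 libraries of the comparison was left out, with -0.16 to -0.17 and adjusted p from 0.102 to 0.125. That call was also lost with library size alone (-0.10, adjusted p = 0.177) and with no filter on low counts (-0.16, 0.0749).

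CD38 and GPRC5D had rises with romidepsin. CD38 read 12.9 and 9.12 CPM at 2 h, 10.7 and 10.4 CPM at 5 h and 17.8 and 16.99 CPM at 20 h. The 20 h libraries were above all other libraries of the study, and the rise from DMSO was 0.61 ± 0.14 (edgeR adjusted p = 4.5e-05), or 1.52-fold. GPRC5D read 53.7 and 52.3 CPM at 2 h and 67.2 and 70.7 CPM at 5 h, above DMSO by 0.37 ± 0.07 and 0.75 ± 0.07 (edgeR adjusted p = 5.8e-05 and 2.5e-16). By 20 h it was below DMSO, at 24.8 and 24.8 CPM (-0.73 ± 0.08, edgeR adjusted p = 5.3e-15). FCRL5 read 0.43 and 1.34 CPM at 5 h and 0.76 and 0.78 CPM at 20 h. The changes of 1.87 ± 0.70 and 1.69 ± 0.70 are a description, and without DMSO replicate 1 they were 1.36 and 1.14. Without romidepsin replicate 2 at 5 h the former was 0.85. LY9 ran from 1.18 to 2.88 CPM over the romidepsin libraries and passed at no time.

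The comparison of the 2 inhibitors given at the same dose had no DMSO library in it. At 2 h 6 of the 8 genes were higher with romidepsin than with panobinostat and none was lower, where 17.3% of all tested genes were higher with romidepsin. The count was again 6, with none lower, at 5 h (24.8%), and all 8 were higher at 20 h (23.4%). Of the calls over all genes, 46.6%, 48.9% and 56.1% were higher with romidepsin at 2, 5 and 20 h, and the rest lower. The 6 genes at 2 h and at 5 h were TNFRSF17, SDC1, SLAMF7, GPRC5D, CD28 and CD48. At 20 h the differences ran from 1.73 ± 0.06 for SDC1 to 3.97 ± 0.11 for CD28 (edgeR adjusted p = 8.6e-48 and 5.1e-55), or 3.32-fold to 15.7-fold. CD28 retained 26.5 ± 1.27 CPM with romidepsin and 1.71 ± 0.24 CPM with panobinostat, whereas TNFRSF17, with a difference of 2.57 ± 0.17, was at 6.18 ± 0.45 and 1.02 ± 0.22 CPM. For CD38 the inhibitors lay on opposite sides of DMSO at 20 h, and the difference was 2.20 ± 0.15 (edgeR adjusted p = 2.9e-24).

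For CD38 and LY9 the difference at 2 and 5 h did not pass. The 95% intervals for CD38 were -0.12 to 0.46 at 2 h and -0.35 to 0.23 at 5 h. They were wider for LY9, from -0.56 to 0.73 and from 0.01 to 1.27. Those intervals do not show that the inhibitors act alike. The GPRC5D call at 2 h (0.22 ± 0.07, edgeR adjusted p = 0.0071) was lost without panobinostat replicate 2 (0.21, adjusted p = 0.0745) and without romidepsin replicate 1 (0.21, 0.0639). FCRL5 differed by -0.21 ± 0.68, -0.56 ± 0.59 and 2.02 ± 0.71 at 2, 5 and 20 h, again as a description.

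**Figure D3:**
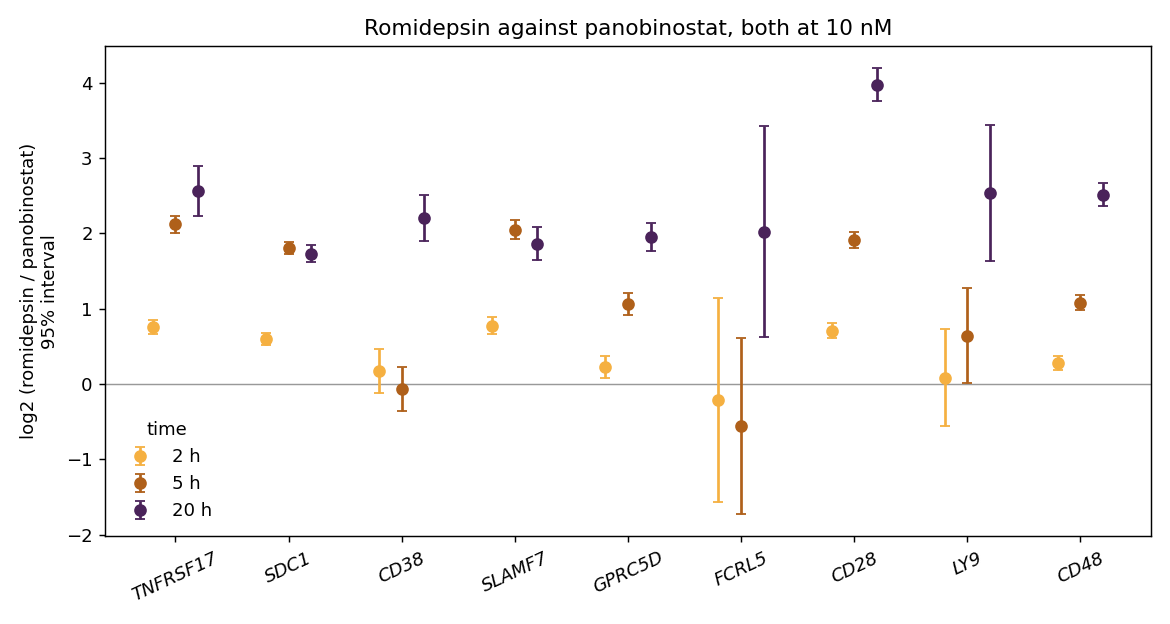
Log2 ratio of romidepsin to panobinostat, both at 10 nM, with 95% intervals from the edgeR fit (n = 2 libraries per group) for the 9 tested genes at 2, 5 and 20 h. At 20 h the intervals of all 8 genes other than FCRL5 lie above 0, with estimates from 1.73 for SDC1 to 3.97 for CD28. Those of CD38 and FCRL5 span 0 at 2 and 5 h. FCRL5, also above 0 at 20 h, is a description only, since it passed the filter only through groups in which it was higher.

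Ricolinostat, at its higher dose, gave small early falls in the same abundant genes and a partial return for some of them by 20 h. Its values stand beside those of the other inhibitors without a test, since the doses differ. At 2 h 6 of 8 genes were lower than DMSO and none higher (background 14.5% and 16.9%). At 5 h the count was 6 and 0 (15.3% and 18.8%), and at 20 h 5 and 1 (16.4% and 14.7%). The median change of the 8 was -0.51, -0.37 and -0.20, and that of all genes 0, 0.02 and 0.03.

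TNFRSF17 read 175 and 185 CPM at 2 h of ricolinostat, 180.1 and 156 CPM at 5 h, and 226 and 226 CPM at 20 h. All 6 libraries were below DMSO, those of 20 h the least, with -0.74 ± 0.05, -0.84 ± 0.05 and -0.41 ± 0.05 (edgeR adjusted p = 1.5e-12 at 20 h). SDC1 was likewise lower at each time, at 687 and 699, 739 and 693, and 976 and 988 CPM, with -0.69 ± 0.04, -0.64 ± 0.04 and -0.19 ± 0.04. CD28 read 147 and 148, 152 and 130.3, and 256 and 261 CPM, with -0.56 ± 0.05, -0.62 ± 0.05 and then 0.25 ± 0.05 (edgeR adjusted p = 1.1e-05). Its 20 h libraries were above DMSO, and above those of every other group. SLAMF7 took the other course: it read 263 and 270 CPM at 2 h, 302 and 262 CPM at 5 h and 208 and 211 CPM at 20 h, with -0.46 ± 0.06, -0.38 ± 0.06 and -0.81 ± 0.06 (edgeR adjusted p = 8.6e-14), so that its 20 h libraries were its lowest. CD48 lay between 203 and 229 CPM in the 6 libraries, with -0.19, -0.12 and -0.21 (each ± 0.05). LY9 was lower at 2 h, at 0.87 and 0.95 CPM (-1.14 ± 0.35, edgeR adjusted p = 0.00679), and did not pass later. GPRC5D passed at 20 h with -0.20 ± 0.07 and CD38 at 5 h with -0.36 ± 0.15 (edgeR adjusted p = 0.0265 and 0.0476). FCRL5 changed by -0.19 ± 0.83, 0.58 ± 0.77 and 0.47 ± 0.78.

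Several of these small changes rested on the scaling or on a library. With counts scaled by library size alone, the calls of SDC1 (-0.09, adjusted p = 0.0556), CD48 (-0.11, 0.0547) and GPRC5D (-0.10, 0.328) at 20 h and of CD48 (-0.08, 0.129) and CD38 (-0.32, 0.08) at 5 h were lost. GPRC5D at 20 h was also lost without DMSO replicate 2 (-0.16, 0.25) or ricolinostat replicate 1 (-0.17, 0.212), and CD48 at 5 h without ricolinostat replicate 2 (-0.09, 0.292). CD38 at 5 h was also lost without DMSO replicate 1 (-0.37, 0.115) or 2 (-0.43, 0.0615), and without ricolinostat replicate 1 (-0.34, 0.148).

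Successive times of an inhibitor were also compared with each other. Here too, time in culture and inhibitor cannot be told apart, since no vehicle library has a stated time. From 2 to 5 h of panobinostat 6 of 8 genes changed, all downward, where 41.9% of all tested genes changed in either direction. From 5 to 20 h all 8 changed, again downward, where 56.3% did so in either direction. Of those calls over all genes, 47.2% and 48.8% were upward. TNFRSF17 changed by -1.77 ± 0.06 and then by -5.37 ± 0.11. With romidepsin 3 genes changed from 2 to 5 h (background 20.3%): TNFRSF17 (-0.40 ± 0.05) and SDC1 (-0.24 ± 0.04) fell and GPRC5D rose (0.38 ± 0.07). From 5 to 20 h 8 changed (62.8%), 7 downward, led by TNFRSF17 (-4.93 ± 0.07) and SLAMF7 (-3.98 ± 0.07), and CD38 upward (0.72 ± 0.14, edgeR adjusted p = 3.1e-06). With ricolinostat 1 changed from 2 to 5 h (15.3%), GPRC5D at -0.27 ± 0.07, a call lost without ricolinostat replicate 1 at 2 h (-0.24, adjusted p = 0.099). That count was 0 in the fit without this library, 3 without replicate 1 at 5 h and 2 without replicate 2 at 5 h. From 5 to 20 h 4 changed (37.9%): CD28 (0.87 ± 0.05), SDC1 (0.46 ± 0.04) and TNFRSF17 (0.43 ± 0.05) rose, and SLAMF7 fell (-0.43 ± 0.06).

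Within a gene, the 10 group means were put in order, and neighbours in that order overlapped less often in the abundant genes than in the low ones. TNFRSF17, GPRC5D and CD28 each had 1 pair of neighbours in that order, of 9, whose libraries overlapped, SDC1 and SLAMF7 had 2 and CD48 had 3. CD38 had 7, LY9 5 and FCRL5 8. The share of such overlaps over all genes was not counted, and a lack of overlap between 2 and 2 libraries is not a call. SLAMF7 at 5 h of romidepsin did not overlap DMSO, yet its change did not pass (edgeR adjusted p = 0.905). In TNFRSF17, SDC1, SLAMF7, CD28, GPRC5D and CD48 the lowest mean was that of panobinostat at 20 h and the next that of romidepsin at 20 h. For CD38 romidepsin at 20 h was the highest mean and panobinostat at 20 h the lowest.

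Across the 10 group means of log2 CPM, TNFRSF17 and SDC1 had a Pearson correlation of 0.997, TNFRSF17 and SLAMF7 one of 0.992, and CD28 and CD48 one of 0.989. CD38 was less like them, at 0.44 with TNFRSF17 and 0.62 with CD28, and FCRL5 ran at -0.05 with TNFRSF17. All of these values come from the same 20 libraries and are a description only. Among the 10418 tested protein-coding genes at 5 CPM or more in some group, USP13 (0.999), FMNL1 (0.999) and UBE2J1 (0.999) were most like TNFRSF17, RAD51D (0.998) most like SDC1, TXNDC15 (0.998) most like SLAMF7, TAF9B (0.998) most like CD28 and VOPP1 (0.997) most like CD48. For the genes of other courses the nearest were MAP3K20 for GPRC5D (0.980), GPR160 for CD38 (0.945), MME for LY9 (0.974) and RETSAT for FCRL5 (0.949).

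CD48, SLAMF7 and LY9 lie next to each other on chromosome 1, with gaps of 27.2 kb between CD48 and SLAMF7 and 41.3 kb between SLAMF7 and LY9. All 3 were lower with panobinostat at 20 h, while F11R, the next tested gene beyond LY9 and a junctional adhesion molecule, rose by 1.93 ± 0.13 (edgeR adjusted p = 4.3e-25). SLAMF1, the neighbour of CD48 on the other side, fell from 0.50 to 0.05 CPM. Other neighbours went in either direction with panobinostat at 20 h. Beside TNFRSF17 SNX29 rose by 0.60 ± 0.06, and beside SDC1 LAPTM4A rose by 0.66 ± 0.06 and PUM2 fell by 1.17 ± 0.04. HEBP1, beside GPRC5D, rose by 0.69 ± 0.09. Next to CD28 RAPH1 changed by 1.05 ± 0.17 and PARD3B by -1.46 ± 0.22. Around FCRL5 the changes were 0.42 ± 0.05 for ETV3 and -2.47 ± 0.53 for FCRL4. MPRIP, beside TNFRSF13B, changed by -0.48 ± 0.04. CCDC144A on its other side and PROM1 beside CD38 rose from low levels (0.16 to 0.73 and 0.10 to 0.88 CPM). FAM200B beside CD38 and GPRC5A beside GPRC5D did not pass.

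Genes that act with the surface targets were counted over lists of partners, relatives and other targets at 20 h. Over all tested genes 40.8% were higher and 32.3% lower with panobinostat at that time. With romidepsin the shares were 38.6% and 29.9%, and with ricolinostat 14.7% and 16.4%. Each list's counts stand beside those shares. Some genes low in DMSO passed the filter only through groups in which they were higher, so the counts are a description. Of 10 genes of the BAFF and APRIL system, which signals through BCMA, 4 were higher and 3 lower with panobinostat, 3 and 3 with romidepsin, and 0 and 3 with ricolinostat. Their medians of 0.30, 0.12 and -0.17 stand beside 0.25, 0.22 and 0.03 for all genes. TRAF3, a brake on non-canonical NF-kB signalling, changed by -2.61 ± 0.09, -2.41 ± 0.09 and -0.49 ± 0.08 in the same order, and CAMLG, a TACI-binding protein, rose by 1.23 ± 0.09 and 0.95 ± 0.09 with panobinostat and romidepsin. Of 9 tested genes of gamma-secretase and the sheddases, 5 were higher and 3 lower with panobinostat, 3 and 3 with romidepsin, and 2 and 1 with ricolinostat (medians 0.25, 0.14 and -0.05, the last 0 with genes at 0 counts in a group set at their bound). The gamma-secretase subunit genes NCSTN and APH1A changed by -1.60 ± 0.05 and -1.46 ± 0.05 with panobinostat and by -1.20 ± 0.05 and -1.09 ± 0.05 with romidepsin. HPSE, which encodes heparanase, the enzyme that trims the sugar chains of CD138, went from 0.20 to 4.36 and 5.998 CPM with them. It had 10 counts over the 2 DMSO libraries. HPSE passed the filter only through groups in which it was higher, so its change is a description.

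Relatives of the targets did not all follow them. In the FCRL family 5 genes were tested, of which 1 was higher and 3 lower with panobinostat, 2 and 2 with romidepsin, and 1 and 0 with ricolinostat (medians -2.37, 0.63 and 0.12). FCRL2 fell from 76.0 to 0.86 CPM with panobinostat (-6.44 ± 0.12) and to 6.37 CPM with romidepsin (-3.58 ± 0.09), and was at 87.0 CPM with ricolinostat (0.20 ± 0.07, edgeR adjusted p = 0.0154). Of the syndecans and glypicans 5 were tested, and 3 were higher and 2 lower with panobinostat and with romidepsin, and 2 higher and 1 lower with ricolinostat (medians 1.23, 0.88 and 0). SDC2 and SDC3, syndecans like SDC1, changed by -4.11 ± 0.13 and -2.06 ± 0.07 with panobinostat and by -2.36 ± 0.11 and -1.22 ± 0.07 with romidepsin, whereas GPC2, a glypican, rose by 4.03 ± 0.17 and 3.48 ± 0.18. Of 3 GPRC5 relatives of GPRC5D, 2, 3 and 1 were higher and none lower with panobinostat, romidepsin and ricolinostat. Medians were 2.90, 2.34 and 0, and the first was 2.37 with a gene at 0 in DMSO set at its bound. GPRC5B was higher with each (2.90 ± 0.27, 1.68 ± 0.30 and 1.39 ± 0.31). GPRC5C had 0 counts in DMSO and GPRC5A stood at 0.09 CPM there. Both passed the filter only through groups in which they were higher, so these counts are a description. Of 3 tested SLAM relatives and adaptors 1 was higher and 2 lower with panobinostat and with romidepsin, and 0 and 1 with ricolinostat (medians -3.19, -2.97 and -0.61), CD58, the ligand of CD2, with changes of -3.77 ± 0.24, -3.18 ± 0.23 and -0.89 ± 0.18.

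CD38 has partners in the handling of NAD and adenosine. Of 5 tested genes of that list 1 was higher and 4 lower with panobinostat, 1 and 3 with romidepsin, and 0 and 3 with ricolinostat (medians -1.73, -0.84 and -0.28). ADA, adenosine deaminase, changed by -3.19 ± 0.07, -2.84 ± 0.07 and -0.68 ± 0.06, and NAMPT, which makes a precursor of NAD, by -1.73 ± 0.04, -0.84 ± 0.04 and -0.28 ± 0.04. ENPP1, an ectoenzyme that also cleaves NAD, rose by 2.90 ± 0.16 with panobinostat and 2.91 ± 0.16 with romidepsin. Of 6 tested genes of the CD28 and B7 families and CD28's adaptors, 3 were higher and 1 lower with panobinostat and with romidepsin, and 2 and 1 with ricolinostat (medians 1.07, 1.43 and -0.13, the last -0.03 with such genes at their bound). GRB2, an adaptor that binds the CD28 tail, rose by 1.11 ± 0.04 and 0.80 ± 0.04 with panobinostat and romidepsin, and CD276, a B7 protein, changed by -1.28 ± 0.17 and -1.33 ± 0.18.

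Among 27 other tested surface targets 11 were higher and 13 lower with panobinostat at 20 h, 11 and 12 with romidepsin, and 2 and 9 with ricolinostat (medians -0.65, 0.10 and -0.17). Over all tested genes the shares higher and lower were 40.8% and 32.3%, 38.6% and 29.9%, and 14.7% and 16.4%. ITGA4, an integrin subunit of marrow homing, changed by -3.87 ± 0.06 and -2.30 ± 0.05 with panobinostat and romidepsin. TNFRSF10B, which encodes the death receptor DR5, rose from 7.98 to 254 and 128 CPM (4.98 ± 0.09 and 3.998 ± 0.09).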

How the data were processed

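Raw read counts per gene and library were deposited by the authors for 20 libraries of poly(A) RNA. HISAT2, SAMtools, featureCounts and GRCh38 are named, without versions, in the submitters' processing notes. The annotation, the strand setting and whether reads or pairs were counted remain not given in the sources used here. All values were whole numbers, and all 10 genes were found by identifier through the name table and GENCODE 29, which gave positions and exon lengths.

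After filterByExpr (edgeR 4.0.16 in R 4.3.3, minimum count 10) 20957 genes were left. TMM scaling and a single robust quasi-likelihood fit, with a mean per group, were used for 9 contrasts with DMSO, 3 of romidepsin with panobinostat and 6 between successive times. The p-values were adjusted by Benjamini-Hochberg within a contrast, and intervals are at 95%. The same steps were run on simulated data in which few genes changed, in a single group. Such a run cannot show how the scaling behaves where many genes change, as they do here. Replicates of a group differed by more than counting noise (chi-square per degree of freedom 2.35 to 6.48).

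The genes, the 9 related lists and the 6 marker lists were chosen with earlier results of these data known. All 10 genes are named, and from each list up to 3 genes with the largest change at 20 h among those that passed and reached 5 CPM, plus the genes most like each member and its neighbours. Some genes of these lists are not reported here. Alternatives were other scalings, the DESeq2 1.42.0 test, no or a stricter filter on low counts, a replicate block, only the groups compared, and leaving out each of the 20 libraries in turn. Promoter sequences came from RefSeq (GRCh38.p14), and TNFRSF17, SLAMF7 and LY9 are named only.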

Additional observations from a re-analysis of the deposited data

Results flagged for a closer look

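Some genes differed between times of an inhibitor, by the test between those times. Time in culture and inhibitor cannot be told apart in that test, since no vehicle library has a stated time. Of 9 genes, FCRL5 included, 6 differed between 2 and 5 h of panobinostat and 9 between 5 and 20 h, where 41.9% and 56.3% of all tested genes did. With romidepsin these numbers were 3 and 8 (20.3% and 62.8% of all genes). With ricolinostat they were 1 and 4, near the shares of all genes (15.3% and 37.9%). Without FCRL5 the count between 5 and 20 h of panobinostat was 8 and the others did not change. In 2 genes the direction from DMSO also turned: GPRC5D was higher with romidepsin at 5 h (69.0 ± 2.48 CPM) and lower at 20 h (24.8 CPM) than in DMSO (40.9 ± 1.97 CPM), a difference between those times of -1.48 ± 0.07 on the log2 scale. CD28 was lower with ricolinostat at 5 h (141 ± 15.3 CPM) and higher at 20 h (258 ± 3.5 CPM) than in DMSO (218 ± 0.34 CPM), a difference of 0.87 ± 0.05. Neither difference changed sign under the alternatives run.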

How the results depend on the processing

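Of 1774 values of single genes under an alternative, 1725 kept their direction and their side of the threshold, 32 lost and 17 gained a call, and none that was called changed direction. Of 324 counts, taken over 9 genes with FCRL5 among them, 302 stayed within 1.5 times. With a filter of 1 CPM in 2 libraries 1 gene, GPRC5D, was higher with panobinostat at 2 h and with ricolinostat at 2 h, where none was as reported. GPRC5D also passed at 2 h of ricolinostat with the replicate block and with only the groups compared, for a count of 1. With FCRL5 not counted, a choice made after seeing the data and used above, 0 genes in place of 1 were higher with panobinostat at 5 h and 1 in place of 2 with romidepsin at 5 h and at 20 h. The DESeq2 test and no filter on low counts also gave 1 in place of 2 there, since FCRL5 was lost. With libraries left out in turn these counts ran from 1 to 2. With library size alone, 2 genes in place of 5 were lower with ricolinostat at 20 h, 5 in place of 3 differed between 2 and 5 h of romidepsin and 2 in place of 1 between 2 and 5 h of ricolinostat (0 to 3 with libraries left out in turn).

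The replicate numbers did not pair the libraries: over 45 pairs of groups the correlation of same-numbered deviations ran from -0.02 to 0.03, and the replicate block moved no count of genes other than the one above by more than 1.5 times. Library size alone moved the median of all genes at 20 h from 0.25 to 0.56 with panobinostat and from 0.22 to 0.46 with romidepsin, at 20 h of ricolinostat from 0.03 to 0.13, and at 5 h from 0.12 to 0.25 and from 0.02 to 0.14 with the former inhibitors. Of all calls with DMSO, the higher share then went from 55.8% to 65.9% (panobinostat 20 h), 43.4% to 65.6% (romidepsin 2 h), 44.1% to 71.3% (romidepsin 5 h) and 47.3% to 66.2% (ricolinostat 20 h). Between times it went from 47.2% to 62.7% and 48.8% to 60.6% with panobinostat, from 41.4% to 65.0% between 2 and 5 h of romidepsin and from 43.8% to 60.6% between 2 and 5 h of ricolinostat. With the DESeq2 test the share at 2 h of romidepsin was 31.0%. The cause of these moves was not tested. Depth limits FCRL5, LY9 and TNFRSF13B, whose counts per library did not pass 73.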
